A study of Mus musculus with 39 samples.

Results

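Lungs of 5 mice that stopped breathing cigarette smoke were compared with lungs of 4 mice that continued, at equal time since the first exposure. The members were the arrays titled 6 week smoke and 6 week break (5 arrays) and 12 week smoke (4 arrays), 9 of the 39 arrays of the series. Both groups were sampled 12 weeks after the start, the stopped mice after 6 weeks of smoke and 6 weeks of rest and the others after 12 weeks of smoke. The study asked which lung transcripts change with cigarette smoke and which return when it ends.

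All groups were male C57BL/6 × CBA F1 hybrid mice, 8 to 10 weeks old at the start, with 1 lung on each array. Smoke mice breathed mainstream tobacco smoke through the nose (2 cigarettes daily, 5 days weekly) while held in a restrainer. Sham mice were held in the restrainer without smoke. The 6 week smoke-break sham group (5 mice, 6 weeks in the restrainer and 6 weeks of rest) and the 12 week sham group (5 mice, 12 weeks in the restrainer) served as the same comparison without smoke. The labels give sampling 3 hours after exposure for every group, also for the groups with a break, and the sources used here do not give the time of day. Stopped and continuing mice therefore differ in total exposure, in the time since the last cigarette and in the time since the last restraint, and these cannot be told apart between the 2 smoke groups alone. RNA came from the upper part of the frozen left lobe, so in these bulk samples fewer cells of a type and less RNA per cell cannot be told apart.

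Compounds of tobacco smoke such as polycyclic aromatic hydrocarbons bind the aryl hydrocarbon receptor (AhR), a transcription factor that enters the nucleus with its partner Arnt and switches on cytochrome P450 genes of the CYP1 family by way of xenobiotic response elements. Oxidants and electrophiles release another transcription factor, Nrf2, from its inhibitor Keap1, and Nrf2 raises genes for glutathione synthesis, thioredoxin recycling and quinone reduction by way of antioxidant response elements. Both are known as leading transcriptional responses of the smoke-exposed airway and lung. Lung cells also carry a circadian clock, whose activators Arntl and Clock and repressors Per and Cry set a daily rhythm in many other transcripts.

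The promoters of the pair of genes with the largest decreases after stopping are shown because a match to the core of the response element can be seen in the letters. Each line gives the 250 bases before the RefSeq start of the gene, 5′ to 3′ on the gene's own strand, with the xenobiotic response element core GCGTG, or CACGC where it lies on the other strand, in capitals. The Cyp1a1 stretch is chr9:57697363-57697612 on the plus strand and the Cyp1b1 stretch chr17:79715062-79715311 on the minus strand (GRCm38.p6).
Cyp1a1: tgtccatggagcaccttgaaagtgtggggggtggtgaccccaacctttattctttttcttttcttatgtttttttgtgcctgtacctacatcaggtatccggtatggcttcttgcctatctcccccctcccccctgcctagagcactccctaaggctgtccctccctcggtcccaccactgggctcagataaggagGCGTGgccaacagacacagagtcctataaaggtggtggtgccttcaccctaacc
Cyp1b1: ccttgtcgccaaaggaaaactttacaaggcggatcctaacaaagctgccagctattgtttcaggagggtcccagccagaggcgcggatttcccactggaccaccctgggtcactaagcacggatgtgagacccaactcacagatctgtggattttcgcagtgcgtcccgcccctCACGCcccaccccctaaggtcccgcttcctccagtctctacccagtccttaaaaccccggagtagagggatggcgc
The match begins 54 bases before the start in Cyp1a1 and 76 bases before it in Cyp1b1.

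The core was also found, on either strand, in 4 of the 5 AhR-responsive genes with a RefSeq promoter among those that fell (Cyp1a1, Cyp1b1, Ahrr and Tiparp, not Nqo1), and in 30.9% of the 27025 genes with a RefSeq promoter. It stood in 6 of the 9 Nrf2 antioxidant genes that fell and had a promoter. The antioxidant response element TGACNNNGC, where N is any base, stood in 2 of those 9 (Txnrd1 and Gclm) and in 11.5% of all genes, counted over both strands. All counts use the 250 bases before the start. A match in this window is a description of the letters and not evidence of binding.

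Across 17560 probes, 353 differed between 6 week smoke and 6 week break and 12 week smoke lungs at an adjusted p under 0.05 (2.01% of those tested), from limma's moderated test with Benjamini-Hochberg adjustment over all of them. Of these, 180 probes (1.03%) were higher in the stopped lungs and 173 (0.985%) lower, which stand for 169 and 164 named genes. The decreases reached further: 35 of the 173 lower probes but 12 of the 180 higher ones passed 2-fold. The median log2 difference was -0.64 among lower and 0.53 among higher probes, against 0.0073 over all probes tested. The values of the 5 stopped and the 4 continuing lungs did not overlap for 136 of the lower and 132 of the higher probes, against 5.1% of all probes. These probes were called for a difference between the same lungs, so their lack of overlap is not further evidence. The largest changes named below were also picked among called probes without overlap. Xenobiotic and antioxidant enzymes, chaperones and clock genes led the decreases, and collagen and matrix genes were among the increases.

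The count depended on the arrays and the terms of the fit. A fit of the 9 arrays alone called 3 probes higher and 17 lower, all of them among the 353. The higher ones were Itprid1, Clmp and Cirbp, and the lower ones Cyp1a1, Cyp1b1, Aldh3a1, Nqo1, Hmox1, Gclc, Gclm, Gsta1, Txnrd1, Osgin1, Hsph1, Map3k6, Per2, Hlf, Gpnmb, Sphk1 and Tspan4, so every other call of this comparison ended in that fit. A fit without the label runs (5 runs read from the sequence of exposure labels, each with about 1 array per group) called 94 and 104. In the 9 fits that each left out 1 lung of the 2 groups, 132 of the 353 probes were called every time, and 189 probes were called without 12 week smoke m1, 207 without m4, 233 without m2, and 234 and 239 without m2 and m5 of the stopped mice.

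No difference in signal depth was detectable between the arrays of the 2 groups. The median Cy5 signal was 2.42 to 7.18 times the local background on the arrays of stopped lungs and 2.69 to 6.68 times on those of 12 week smoke lungs (exact two-sided permutation test of the means, p = 0.881). Probes above the negative controls made up 67.2% to 88.9% of the gene probes on the arrays of stopped lungs and 74.5% to 80.1% on those of 12 week smoke lungs (exact p = 0.937, with 0.00794 the smallest p that 126 splits allow). The array labelled 6 week sham m2, in neither group but in the fit, had a Cyp1a1 log2 ratio of 6.46, inside the range of the smoke mice (5.07 to 8.06) and outside that of all other mice without current smoke (0.45 to 2.81). Without it, 210 probes were higher and 193 lower after stopping.

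All 10 measured AhR-responsive genes were lower in the stopped lungs, with a median log2 difference of -1.28. Of these, 6 fell past the threshold (60%, against 2.01% of all probes). Values are log2 ratios of lung to a universal reference, and mice are m1 to m5 in the order of their group. Cyp1a1, which oxidises polycyclic aromatic hydrocarbons, was at 2.19, 0.97, 0.96, 1.42 and 1.93 in 6 week smoke and 6 week break lungs, against 5.53, 7.36, 6.47 and 7.04 in 12 week smoke lungs. Every stopped lung was far below every continuing lung. The fitted difference, which takes the runs into account and so need not equal the difference of the means, was -5.20 ± 0.63 (SE), a 36.8-fold lower level (adjusted p = 4.57e-06). Within the 4 shared runs it ranged from -6.39 to -3.34.

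**Figure D1:**
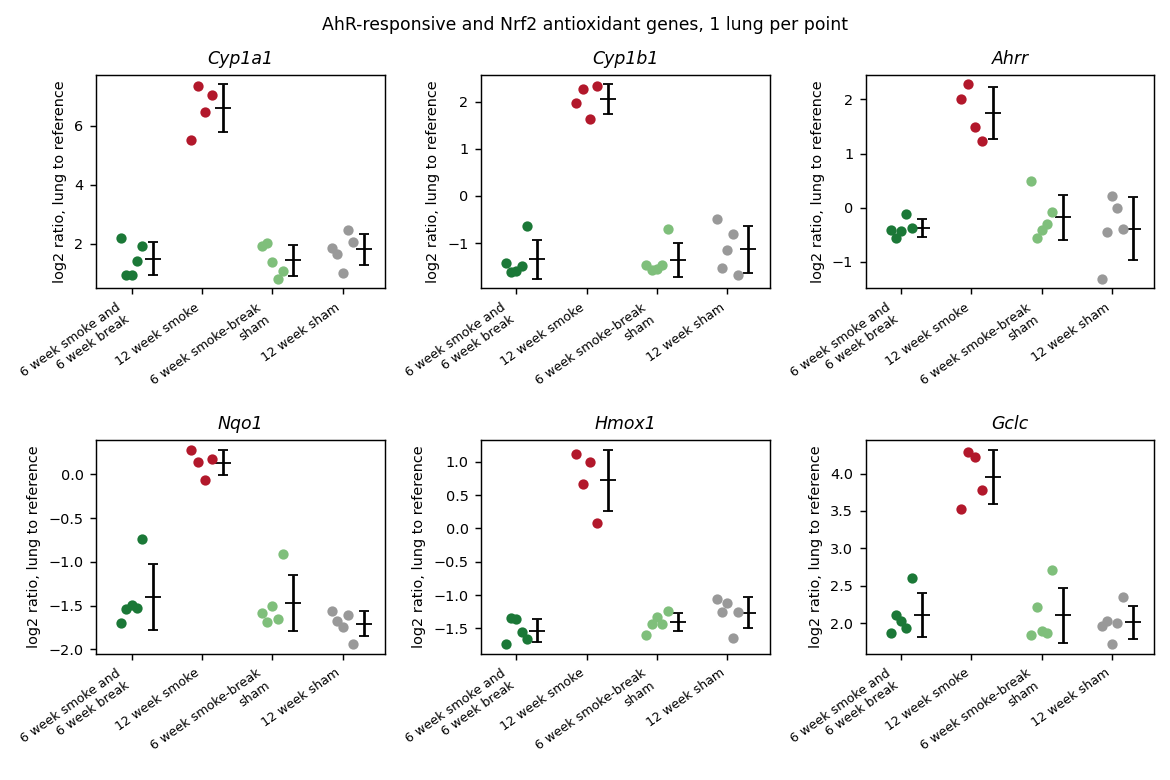
Log2 ratio of lung to reference (vertical axes) of 6 xenobiotic and antioxidant genes, 1 point per lung, in 6 week smoke and 6 week break, 12 week smoke, 6 week smoke-break sham and 12 week sham mice; the bars give mean and SD. In each panel the 12 week smoke lungs stand above the other 3 groups, as for Cyp1a1 at 5.53 to 7.36.

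Cyp1b1, a related monooxygenase, was at -1.41, -1.62, -1.59, -1.48 and -0.63 in stopped lungs, against 1.97, 2.28, 1.63 and 2.32 in 12 week smoke lungs (-3.54 ± 0.40, 11.6-fold lower, adjusted p = 1.54e-06). Ahrr, the repressor that AhR induces against itself, was at -0.42, -0.56, -0.42, -0.11 and -0.37 in stopped lungs and at 2.01, 2.28, 1.48 and 1.24 in 12 week smoke lungs (-2.22 ± 0.38, adjusted p = 0.00058). Neither gene overlapped between the groups, although m5 of the stopped mice was above the other 4 for Cyp1b1, and Ahrr was above the negative controls in 3 of the 5 stopped lungs and in all 4 continuing ones. Aldh3a1, which oxidises aldehydes of smoke and lipid peroxidation, averaged -0.07 ± 0.27 in stopped and 1.47 ± 0.14 in 12 week smoke lungs (SD, n = 5 and 4; difference -1.63 ± 0.21, adjusted p = 1.27e-05). The smallest of the 6 decreases was that of Tiparp, an ADP-ribosyltransferase that restrains AhR (-0.45 ± 0.11, adjusted p = 0.021), whose call was lost in 5 of the 9 fits that left out 1 lung (adjusted p up to 0.101).

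Of 34 measured Nrf2 antioxidant genes, 31 were lower in stopped lungs, with a median log2 difference of -0.40. The threshold was passed by 11 decreases (32.4%, against 2.01% of all probes) and by no increase. Hmox1, which breaks down heme, was at -1.73, -1.34, -1.37, -1.56 and -1.67 in stopped lungs, against 1.12, 0.67, 1.00 and 0.09 in 12 week smoke lungs (-2.32 ± 0.36, 4.98-fold lower, adjusted p = 0.000189). Nqo1, a quinone reductase that AhR and Nrf2 both induce, was at -1.70, -1.54, -1.49, -1.52 and -0.74 in stopped lungs, against 0.28, 0.14, -0.06 and 0.17 in 12 week smoke lungs (-1.65 ± 0.21, adjusted p = 7.47e-06). The continuing lungs were higher without overlap for both genes, and Hmox1 varied most among them, with m4 nearest to the stopped lungs.

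Members of the list that make or use glutathione were among those that fell. Gclc, the catalytic subunit of glutamate-cysteine ligase, averaged 2.11 ± 0.29 in stopped and 3.96 ± 0.37 in 12 week smoke lungs (difference -1.96 ± 0.31, 3.89-fold lower, adjusted p = 0.00027). Its modifier subunit Gclm differed by -1.25 ± 0.18 (adjusted p = 4.33e-05). Gsta1, a glutathione transferase, differed by -1.21 ± 0.19.

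Of the other members of the list that fell, Txnrd1, thioredoxin reductase, averaged -0.62 ± 0.14 in stopped and 0.43 ± 0.22 in 12 week smoke lungs (-1.12 ± 0.14, adjusted p = 1.11e-05), and Srxn1, which repairs oxidised peroxiredoxins, -1.04 ± 0.17 and 0.51 ± 0.34 (-1.65 ± 0.23, adjusted p = 4.15e-05). The other Srxn1 probe differed by -0.48 (adjusted p = 0.15), so its 2 probes gave unequal sizes. Osgin1, an oxidative stress response gene, was lower by 1.68 ± 0.17 on the log2 scale. Cbr3, a carbonyl reductase, and Akr1b8, an aldo-keto reductase, fell by 1.74 and 1.03 on the log2 scale. Ftl1, the light chain of the iron store ferritin, fell by 0.70, and it lost its call without 12 week smoke m4 or without m3 of the stopped mice (adjusted p up to 0.054).

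Outside these lists, a further list of oxidising and conjugating enzymes had 3 of 22 measured genes lower and none higher, with a median of 0.06. That is 13.6% called, against 2.01% of all probes. Adh7, an alcohol and retinol dehydrogenase, was at 0.91, 0.39, -0.23, -0.04 and 1.32 in stopped lungs and at 2.29, 2.00, 2.26 and 1.82 in 12 week smoke lungs (-1.78 ± 0.31, adjusted p = 0.000786). The stopped lungs spread widely, yet all lay below the continuing ones. The others were Aox1, aldehyde oxidase (-0.91 ± 0.17), and Pon3, a paraoxonase (-0.40 ± 0.10), with Pon3 not called in 5 of the 9 fits that left out 1 lung (adjusted p up to 0.109). Not counted in the list, and chosen after their values were seen, the glutathione transferases Gstt3 and Gstp3 and the methyltransferase As3mt were called higher. Across those 9 fits they differed by 0.74 to 0.97, 0.49 to 0.69 and 0.47 to 0.61 on the log2 scale. Gstt3 kept its call in every fit, Gstp3 lost it in 7 and As3mt in 2.

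**Figure D2:**
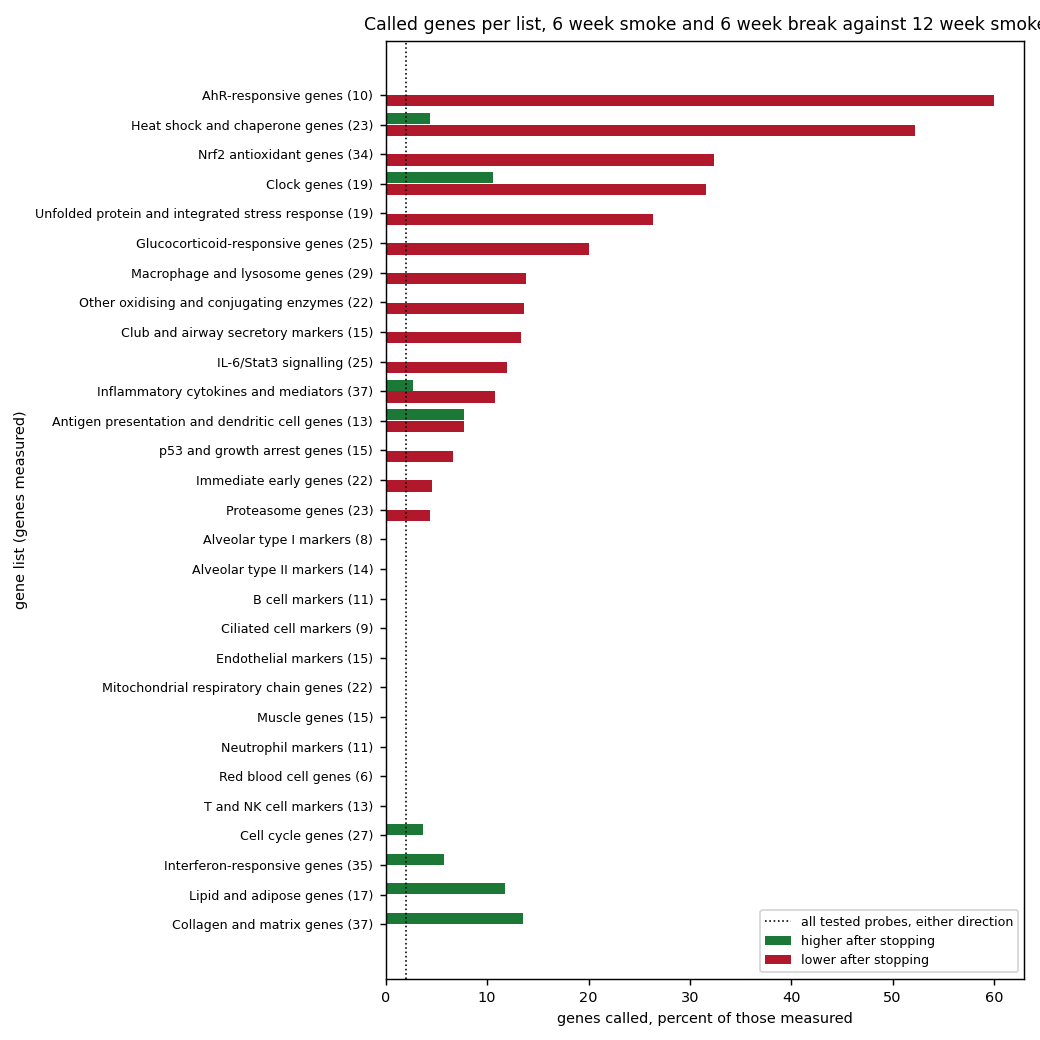
Share of the measured genes of each of 29 lists (horizontal axis, percent; number measured in brackets) called higher or lower in 6 week smoke and 6 week break against 12 week smoke lungs. Decreases reach 60% of AhR-responsive genes, increases reach 13.5% of collagen and matrix genes, and the dotted line marks 2.01%, the share of all probes called.

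Heat shock and chaperone genes formed the longest run of decreases, with 12 of 23 measured genes lower and 1 higher. The median was -0.60, and 56.5% were called, against 2.01% of all probes. Hsph1, a co-chaperone of the Hsp70 family that the heat shock factor induces, was at -0.56, -0.83, -0.81, -0.78 and -0.19 in stopped lungs, against 1.16, 0.84, 0.78 and 1.04 in 12 week smoke lungs (-1.69 ± 0.27, 3.22-fold lower, adjusted p = 0.000264). The groups were well apart, and within shared runs the difference stayed between -1.82 and -1.60. Hspa8, the constitutive Hsp70 protein, Hspa4l, its relative, and Dnaja1, an Hsp40 partner, fell by 1.09, 1.06 and 0.89 on the log2 scale. Others that fell serve Hsp90 (Stip1, Fkbp4, Ahsa1 and Chordc1), the mitochondrion (Hspe1) or the actin cytoskeleton (Hspb1), by 0.51 to 0.82 on the log2 scale. Leaving out 1 lung at a time ended the call of Hspb1 in 8, Hspa8 in 2 and Chordc1 in 1 of 9 fits (adjusted p up to 0.159), always including fits without a 12 week smoke lung. The inducible Hspa1a had a difference of -1.30 that did not pass the test (adjusted p = 0.126).

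The single increase of that list was Cirbp, a cold-inducible RNA-binding protein that heat lowers. It was at 0.67, 1.13, 0.78, 1.13 and 1.15 in stopped lungs, against -0.39, -0.11, -0.11 and -0.06 in 12 week smoke lungs (1.15 ± 0.18, adjusted p = 0.000198). All stopped lungs were higher, while Rbm3, the related cold-inducible gene, differed by 0.47 (adjusted p = 0.248).

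The unfolded protein and integrated stress response had 5 of 19 measured genes lower and none higher. The median was -0.35 and the called share 26.3%, against 2.01% of all probes. Xbp1, the transcription factor that is spliced under stress of the endoplasmic reticulum, averaged -0.26 ± 0.12 in stopped and 0.36 ± 0.17 in 12 week smoke lungs (-0.61 ± 0.10, adjusted p = 0.000536). Herpud1, part of the degradation machinery of that compartment, fell by 0.67 on the log2 scale. Chac1, which degrades glutathione and is induced by Atf4, fell by 0.80. The remaining members were the lumenal chaperones Hspa5 and Dnajb9, which are counted in the chaperone list too, and Hspa5 lost its call in 6 of 9 fits without 1 lung.

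Of 19 measured clock genes, 6 were lower and 2 higher in stopped lungs (median -0.40, 42.1% called, against 2.01% of all probes). Per2, a repressor of the clock, was at 0.98, 1.67, 1.03, 0.81 and 1.00 in 6 week smoke and 6 week break lungs, against 3.29, 3.18, 3.05 and 3.41 in 12 week smoke lungs (-2.17 ± 0.25, 4.49-fold lower, adjusted p = 1.54e-06). Dbp, a transcription factor that the clock drives, was at -0.17, 0.45, 0.32, -0.51 and 0.13 in stopped lungs and at 1.09, 1.21, 1.45 and 1.45 in 12 week smoke lungs (-1.27 ± 0.18, adjusted p = 4.23e-05). Hlf, of the same family as Dbp, averaged 0.76 ± 0.25 in stopped and 1.79 ± 0.24 in 12 week smoke lungs (-1.12 ± 0.16). All 3 were lower in each stopped lung than in any continuing lung.

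Bhlhe40 (-0.84 ± 0.14), Cry1 (-0.74 ± 0.19) and Rora (-0.63 ± 0.12) also fell, 2 repressors and a nuclear receptor of the clock. Both increases were activators: Clock, by 0.46 ± 0.12, and Arntl, its partner. Cry1 and Clock each lost the call in 5 of the 9 fits that left out 1 lung (adjusted p up to 0.159 and 0.191), and Arntl only without 12 week smoke m3 (adjusted p = 0.053). Arntl was not well above background on any of the 4 arrays of 12 week smoke lungs but was on 4 of the 5 of stopped lungs, so only a bound on the group means can be given. By that bound the mean of these stopped lungs was at least 1.79-fold higher (Cy5 means of 7.85 in stopped and 6.80 in 12 week smoke lungs on the log2 scale, after scaling between arrays, with adjusted p = 0.00624 from the moderated test). The bound sets the stopped mean against the higher, on each dim array, of the probe's own signal and the lowest signal above background. It takes the stopped arrays as measured, including the array not well above background, and makes no allowance for sampling error.

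**Figure D3:**
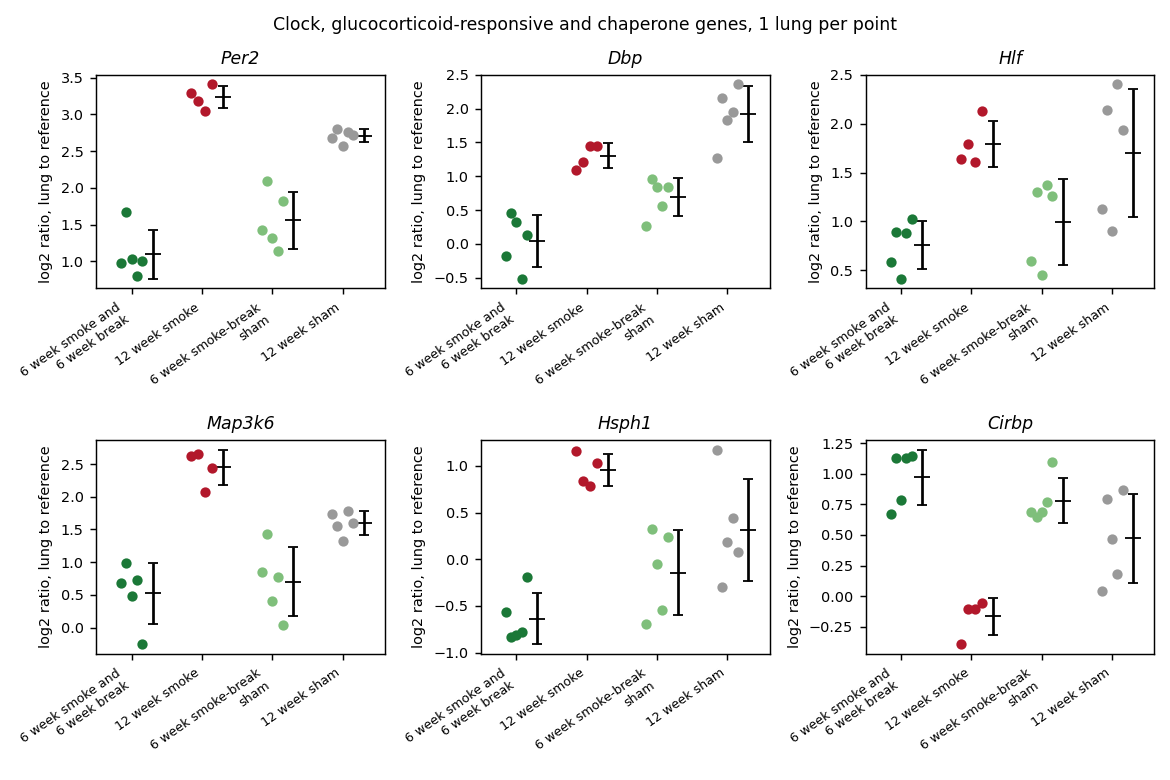
Log2 ratio of lung to reference (vertical axes) of clock genes (Per2, Dbp, Hlf), a glucocorticoid-responsive gene (Map3k6) and chaperone or cold-inducible genes (Hsph1, Cirbp), 1 point per lung, in the same 4 groups with mean and SD. Per2 is at 0.81 to 1.67 in 6 week smoke and 6 week break lungs and at 3.05 to 3.41 in 12 week smoke lungs. The 2 sham groups do not overlap for Per2 either, although their difference just missed the threshold.

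Glucocorticoid-responsive genes had 5 of 25 measured members lower and none higher (median -0.36, 20% called, against 2.01% of all probes). Map3k6, a stress kinase of the list, was at 0.67, 0.98, 0.49, 0.72 and -0.25 in stopped lungs and at 2.63, 2.66, 2.07 and 2.45 in 12 week smoke lungs (-1.93 ± 0.22, 3.81-fold lower, adjusted p = 1.58e-06). Tsc22d3, the glucocorticoid-induced leucine zipper, averaged 2.19 ± 0.45 in stopped and 3.20 ± 0.25 in 12 week smoke lungs (-1.0 ± 0.16, adjusted p = 0.000198). Gadd45g, a growth arrest gene, Klf9, a transcription factor, and Arrdc2 fell by 0.85, 0.72 and 0.35 on the log2 scale, but Klf9 and Arrdc2 lost the call in 6 and 8 of the 9 fits that left out 1 lung (adjusted p up to 0.155).

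Inflammatory mediators had a median of -0.16. Of 37 measured, 4 fell and 1 rose (13.5% called, against 2.01% of all probes). Ptgs2, the inducible cyclooxygenase, was at -0.58, 1.14, -0.35, -0.22 and -0.63 in stopped lungs, against 0.74, 1.55, 1.11 and 1.58 in 12 week smoke lungs (-1.35 ± 0.27, adjusted p = 0.00411). The m2 of the stopped mice lay within the range of the continuing mice and the other 4 below it. Cxcl1, a neutrophil chemoattractant, fell by 1.04 ± 0.22 (adjusted p = 0.00765), Ccl17, a T cell chemoattractant, by 0.50 and Tnfaip2 by 0.44, and Vcam1, an adhesion molecule, rose by 0.51. Without 12 week smoke m4 Cxcl1 was not called (adjusted p = 0.057), and Ccl17, Tnfaip2 and Vcam1 lost the call in 5, 6 and 8 of the 9 fits that left out 1 lung (adjusted p up to 0.136).

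Il6 itself did not pass the test. It was at -2.28, -0.19, -0.69, -1.09 and -0.88 in stopped lungs and at -0.27, -0.04, 0.06 and -0.89 in 12 week smoke lungs, with overlap (-0.75, 95% interval -1.37 to -0.14, adjusted p = 0.217). Of the 25 measured genes in the list of IL-6 and Stat3 signalling, 3 fell and none rose (median -0.14). That is 12% called, against 2.01% of all probes. Socs3, the feedback inhibitor of this pathway, was at -0.68, -0.36, -0.42, -0.51 and -0.31 in stopped lungs, against 0.04, 0.49, 0.36 and 0.15 in 12 week smoke lungs (-0.73 ± 0.13, adjusted p = 0.00118). The groups did not overlap. Bcl3, a nuclear co-regulator of NF-kappaB, fell by 0.90 ± 0.16 and Osmr, the oncostatin M receptor, by 0.62 ± 0.14 (adjusted p = 0.073 without 12 week smoke m4). Ctf1, a cytokine of the IL-6 family not counted in that list, was called higher. Across the 9 fits that left out 1 lung it differed by 0.44 to 0.61 on the log2 scale. It lost its call in 3 of them.

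Macrophage and lysosome genes had 4 of 29 measured members called lower and none called higher (13.8%, against 2.01% of all probes). The median was -0.30, and 23 of the 29 had a negative difference. The mean log2 ratio of the list lay between 0.75 and 0.99 in stopped lungs and between 1.14 and 1.34 in 12 week smoke lungs. Gpnmb, a glycoprotein of lipid-laden macrophages, was at -3.14, -2.67, -3.0, -2.64 and -2.95 in stopped lungs and at -1.33, -1.32, -1.76 and -1.49 in 12 week smoke lungs (-1.40 ± 0.20, 2.64-fold lower, adjusted p = 4.23e-05). Every stopped lung was lower. The lysosomal proteases Ctss and Ctsd fell by 0.95 and 0.66 on the log2 scale and the lipid receptor Trem2 by 0.59. Of these 3, Ctss and Trem2 lost the call in 7 and 6 of the 9 fits that left out 1 lung (adjusted p up to 0.164), and Ctsd only without 12 week smoke m2 (adjusted p = 0.067). Cd68 and Marco, which macrophages of the lung also carry, were lower by 0.40 and 0.68 on the log2 scale without passing the test (adjusted p = 0.224 and 0.171), and the part of cell number in these decreases was not tested. Aif1, a macrophage gene not counted in the list, went the other way. It was called higher in all 9 fits that left out 1 lung, by 0.41 to 0.51 on the log2 scale.

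No gene was called in 10 lists, those of neutrophils, B cells, T and NK cells, alveolar type I and type II cells, ciliated cells, endothelium, muscle and red blood cells and that of the mitochondrial respiratory chain. They held 6 to 22 measured genes each. With 2.01% of all probes called, a list of that size can lack a call without differing from all probes. Antigen presentation and dendritic cell genes had 1 of 13 measured members higher and 1 lower (15.4%, against 2.01% of all probes). Neutrophil markers had a median of 0.07 over 11 genes. All 11 B cell markers were higher in stopped lungs (median 0.44), none past the test, and the mean of the list ran from -0.03 to 0.70 in stopped and from -0.51 to 0.36 in 12 week smoke lungs. Their median was 0.39 between the 2 sham groups too, 6 week smoke-break sham minus 12 week sham. Beside this, genes outside the list that B cells use were called, chosen here after their values were seen: Ltb rose by 0.79, Spib by 0.77 and Blnk by 0.64, and without 12 week smoke m1 none of the 3 was called (adjusted p = 0.101 to 0.206), Spib and Blnk losing the call in 6 of the 9 fits that left out 1 lung. Of 15 club and airway secretory markers, 2 were called lower (13.3%, against 2.01% of all probes). The epithelial transcription factor Elf3 fell by 0.86 ± 0.16. The keratin Krt19 fell by 0.55 ± 0.15, a call lost in all 9 fits that left out 1 lung.

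Among increases, collagen and matrix genes led, with 5 of 37 measured genes higher and none lower. The median was 0.13, and 13.5% of the list was called higher, against 1.03% of all probes. Col3a1, a fibrillar collagen, was at -0.84, -0.75, -0.47, -0.29 and -0.73 in stopped lungs, against -1.64, -1.96, -2.04 and -1.42 in 12 week smoke lungs (1.18 ± 0.18, 2.26-fold higher, adjusted p = 0.000131). Loxl1, which crosslinks elastin, was at -0.19, 0.38, 0.22, 0.26 and -0.54 in stopped lungs and at -0.74, -0.92, -0.86 and -0.84 in 12 week smoke lungs (0.93 ± 0.15, adjusted p = 0.000422). Both were higher in every stopped lung, with m5 of the stopped mice closest to the continuing ones for Loxl1. Col5a1, which joins collagen fibrils, rose by 0.72 ± 0.11, the membrane-bound protease Mmp14 by 0.66 ± 0.10 and the mesenchymal growth factor receptor Pdgfrb by 0.54 ± 0.14, Pdgfrb alone losing its call when 1 lung was left out (in 6 of 9 fits, adjusted p up to 0.126). In the fit of the 9 arrays alone no matrix gene was called (adjusted p = 0.082 for Col3a1, 0.098 for Loxl1, 0.113 for Mmp14 and 0.142 for Col5a1). The abundant collagens Col1a1 and Col1a2 had differences of 0.36 and 0.40 that did not pass the test (adjusted p = 0.125 and 0.186).

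The largest increases otherwise belonged to genes without a shared list. Itprid1, a gene with an inositol trisphosphate receptor-interacting domain, was at 2.54, 2.47, 1.57, 2.92 and 2.56 in stopped lungs and at 0.99, 0.97, 0.62 and 1.52 in 12 week smoke lungs (1.43 ± 0.31, adjusted p = 0.00765), m3 being the lowest of the stopped mice and just above the continuing ones. Cd163l1, a scavenger receptor of gamma delta T cells, rose by 1.35 ± 0.28 and Lrrc26, a potassium channel subunit of secretory epithelium, by 1.42 ± 0.33, but with spots marked by the quantification software at weight 0 Lrrc26 differed by 0.75 and was not called (adjusted p = 0.673). Gyg, the primer of glycogen synthesis, was at 2.15, 2.42, 2.37, 2.83 and 2.11 in stopped lungs, against 1.29, 1.29, 1.39 and 1.25 in 12 week smoke lungs (1.09 ± 0.17, adjusted p = 0.00017). The 4 continuing lungs were nearly equal, below every stopped lung.

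Tiam1, which activates the GTPase Rac, Ptpro, a receptor phosphatase, Mrln, a small inhibitor of the calcium pump, and Ckb, a creatine kinase, rose by 0.97 to 1.00 on the log2 scale. Prdm8 rose by 1.34, Dixdc1 by 0.98 and Mgat3 by 0.94, yet another probe of each did not pass the test (0.51, 0.08 and 0.25). Without 12 week smoke m2, Cd163l1, Lrrc26 and Prdm8 were no longer called, and Lrrc26, Prdm8 and Mgat3 lost the call in 4, 3 and 3 of the 9 fits that left out 1 lung in all (adjusted p up to 0.078). Interferon-responsive genes had 2 of 35 members higher, Ifi203 (0.56) and Sp100 (0.48), and lipid genes 2 of 17, Hmgcs1 (0.66) and Sqle (0.50), enzymes of cholesterol synthesis. These are 5.71% and 11.8% of the 2 lists, against 1.03% of all probes called higher. The median was 0.11 over the interferon list and -0.07 over the lipid list, where 11 of 17 differences were negative. Sp100 and Sqle were not called in 6 and 3 of the 9 fits that left out 1 lung (adjusted p up to 0.143 and 0.175). Other probes of Sp100 differed by 0.28 and 0.54 and did not pass the test (adjusted p = 0.651 and 0.224).

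**Figure D4:**
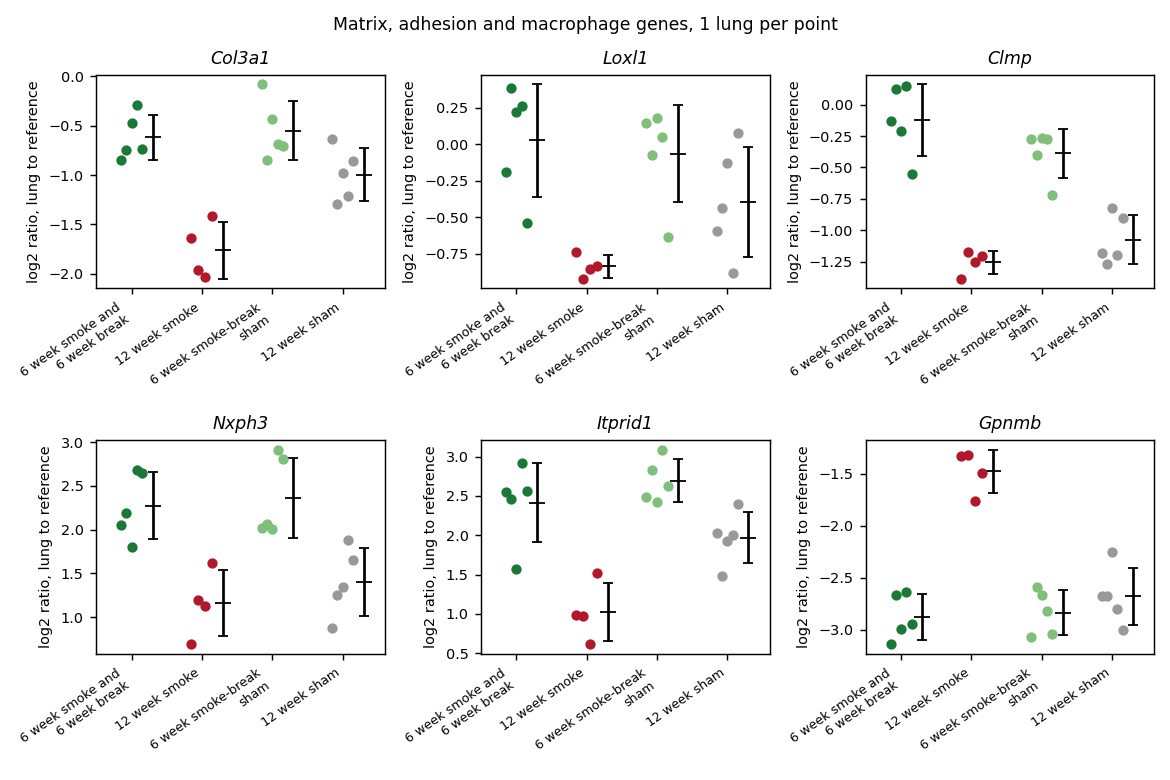
Log2 ratio of lung to reference (vertical axes) of matrix genes (Col3a1, Loxl1), Clmp, Nxph3, Itprid1 and the macrophage gene Gpnmb, 1 point per lung, in 6 week smoke and 6 week break, 12 week smoke, 6 week smoke-break sham and 12 week sham mice, with mean and SD. Clmp and Nxph3 are higher in both groups with a break than in the groups without, and Gpnmb is, of these 4 groups, highest in 12 week smoke lungs (-1.76 to -1.32).

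The sham groups give the same comparison of rest against continued restraint without smoke, in other mice, although their arrays helped to set the spread and the run terms of the fit above. Between 6 week smoke-break sham and 12 week sham lungs, 7 probes were called (0.0399% of those tested), 3 higher and 4 (0.0228%) lower. Of them, 5 were called between stopped and continuing smoke as well, which is 1.42% of those 353 calls and 71.4% of the 7, and all 5 had the same direction. They were Dbp and Slc25a33, which were lower after the break, and Clmp, Nxph3 and Pbx2, which were higher. Of the 10 fits that each left out 1 sham lung, all called Dbp, 7 Clmp, 5 Nxph3, 2 Pbx2 and 1 Slc25a33 between the sham groups. With only the sham arrays in the fit, no probe was called, Dbp included.

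Dbp was at 0.26, 0.96, 0.84, 0.56 and 0.84 in 6 week smoke-break sham lungs and at 1.27, 2.16, 1.83, 1.95 and 2.36 in 12 week sham lungs (-1.22 ± 0.17, adjusted p = 0.000523), close to its difference in the smoke arm. Clmp, an adhesion molecule of tight junctions, was at -0.13, 0.12, -0.21, 0.15 and -0.55 in stopped lungs and at -1.39, -1.17, -1.25 and -1.21 in 12 week smoke lungs (1.15 ± 0.12, adjusted p = 1.52e-06). In the sham arm it was at -0.28, -0.40, -0.26, -0.27 and -0.72 in 6 week smoke-break sham and at -1.18, -1.27, -0.83, -1.20 and -0.90 in 12 week sham lungs (0.69 ± 0.12, adjusted p = 0.0147). Both genes separated the rested from the unrested mice in both arms without overlap. Nxph3, a secreted neurexophilin, rose by 1.07 ± 0.18 in the smoke arm and by 0.96 ± 0.17 in the sham arm.

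Per2, which had the largest decrease of the clock genes, was at 1.43, 2.09, 1.32, 1.14 and 1.82 in 6 week smoke-break sham lungs, against 2.68, 2.81, 2.57, 2.76 and 2.72 in 12 week sham lungs. The sham groups did not overlap, and the difference of -1.15 ± 0.23 just missed the threshold (adjusted p = 0.0509). Map3k6 differed by -0.90 ± 0.21 (adjusted p = 0.0874) and Hlf by -0.71 ± 0.15 (adjusted p = 0.0615) between the same groups. For Hsph1 the sham values overlapped, at -0.69, 0.32, -0.05, -0.54 and 0.23 in 6 week smoke-break sham and 1.18, -0.30, 0.18, 0.44 and 0.08 in 12 week sham lungs (-0.46 ± 0.25, adjusted p = 0.568).

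**Figure D5:**
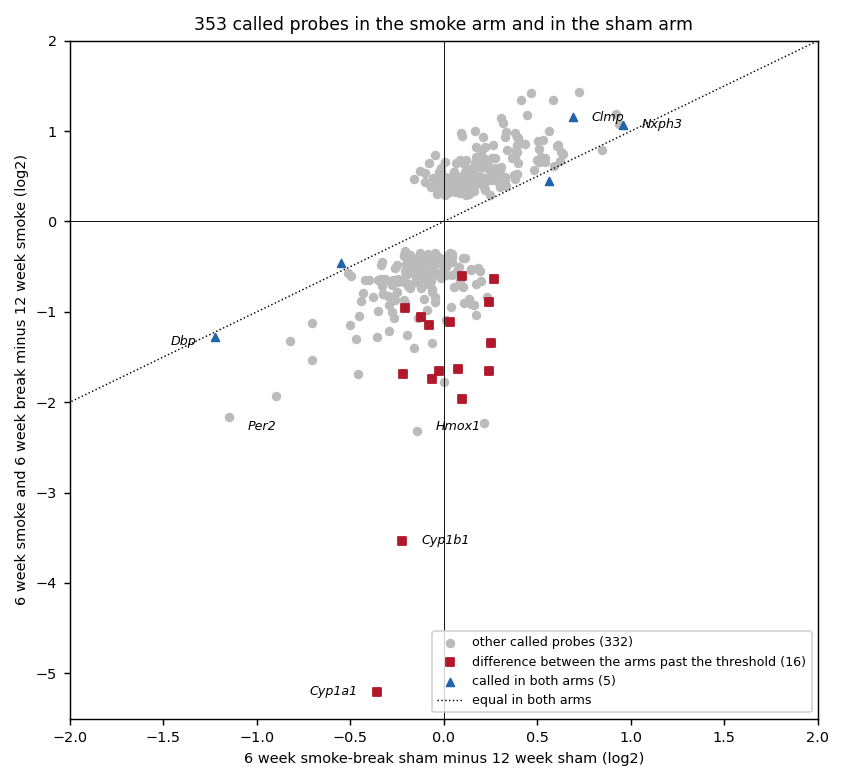
Log2 difference of the 353 called probes between 6 week smoke and 6 week break and 12 week smoke (vertical axis) and between 6 week smoke-break sham and 12 week sham (horizontal axis), 1 point per probe; the dotted line marks equal differences. The 16 squares, led by Cyp1a1 and Cyp1b1, lie far below the line near 0 on the horizontal axis, and the 5 triangles, among them Dbp, Clmp and Nxph3, lie close to it or in the same direction.

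The median log2 difference between the sham groups was 0.07 over the measured AhR-responsive genes, and for Nrf2 antioxidant genes 0.00, for heat shock and chaperone genes -0.05 and for clock genes -0.18.

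Whether the smoke arm differed from the sham arm was tested directly as the difference of the 2 differences. It passed the threshold for 16 probes (0.0911% of those tested), all of them lower in the smoke arm, and 1309 probes had an unadjusted p under 0.05. Without the array labelled 6 week sham m2 it passed for 36 probes, and with array weights for 98. Cyp1a1 differed by -4.84 ± 0.86 more in the smoke arm (adjusted p = 0.00862), Cyp1b1 by -3.31 ± 0.55 (adjusted p = 0.00495) and Nqo1 by -1.89 ± 0.28 (adjusted p = 0.00312). Aldh3a1, Txnrd1, Osgin1, Cbr3, Srxn1 and Gclc passed as well, so that 4 of 10 AhR-responsive and 6 of 34 Nrf2 antioxidant genes did, Nqo1 being in both lists.

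The others were Sphk1, which makes sphingosine 1-phosphate (-0.93), Ptp4a1, a phosphatase with 2 probes past the threshold here (-0.75 and -1.06), Bcl3 (-1.14), Sfn, an epithelial 14-3-3 protein (-1.59), Piga, an enzyme of GPI anchor synthesis (-0.70), and the Hsp90 co-chaperone Chordc1 (-0.91). No clock, glucocorticoid-responsive or matrix gene passed this test. For Per2 the difference of differences was -1.02 ± 0.34 (adjusted p = 0.375), for Dbp -0.05 ± 0.24 (adjusted p = 0.983), for Hsph1 -1.23 ± 0.37 (adjusted p = 0.302) and for Col3a1 0.73 ± 0.24 (adjusted p = 0.377). A p that misses the threshold does not show that the arms were alike for them. Aldh3a1, Cyp1a1, Cyp1b1, Nqo1, Osgin1, Sphk1, Txnrd1 and 1 Ptp4a1 probe passed in all 19 fits that each left out 1 lung of the 4 groups, whereas Gclc passed in none of them, Chordc1 in 3, Piga and Sfn in 6 each, the other Ptp4a1 probe in 12, Srxn1 in 14, Cbr3 in 16 and Bcl3 in 17.

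Where the stopped lungs stood relative to rested lungs that never met smoke can be read from 6 week smoke-break sham, a comparison that shares the stopped arrays. No probe was called between 6 week smoke and 6 week break and 6 week smoke-break sham lungs (0% of those tested), and 758 had an unadjusted p under 0.05. The largest response of the smoke arm left a difference of 0.04 for Cyp1a1, with a 95% interval of -1.16 to 1.24. Narrower intervals were those of Nqo1, at 0.07 (-0.32 to 0.46), Txnrd1, at 0.04 (-0.23 to 0.31), and Gpnmb, at -0.04 (-0.41 to 0.34).

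Over the 173 lower probes the median difference between stopped and 6 week smoke-break sham lungs was -0.09 and over the 180 higher ones 0.09, and the 95% interval excluded 0 for 24 (13.9%) and 22 (12.2%) of them, against 4.32% of all probes. The probes were chosen on a contrast that holds the same stopped arrays. Examples among the named genes, not a full list, had intervals below 0 for Dbp (-0.65, -0.99 to -0.31) and Npr3 (-0.64, -1.05 to -0.23). For Ptgs2 the interval lay above 0 (0.57, 0.06 to 1.09). None of these passed the adjusted test. Npr3, the clearance receptor of natriuretic peptides, had differed between stopped and 12 week smoke lungs by -1.53 ± 0.21 and, on its other probe, by -1.30.

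At the other end, 12 week smoke against 12 week sham lungs, a comparison that shares the continuing arrays, called 76 probes (0.433% of those tested), 66 higher and 10 lower. Cyp1a1 was higher by 4.88 in 12 week smoke than in 12 week sham lungs, Cyp1b1 by 3.32, Nqo1 by 1.96 and Gpnmb by 1.21 on the log2 scale. Per2 differed by 0.56 and Dbp by -0.60 between those groups, without passing the test (adjusted p = 0.456 and 0.164), and Col3a1 by -0.80 (adjusted p = 0.0275).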

How the data were processed

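RNA of 39 mouse lungs was hybridised to 2-colour arrays, lung in Cy5 against a universal mouse reference in Cy3. The authors quantified the scans with ImaGene and deposited intensity values of spot and local background, not normalized, and log2 ratios after LOWESS normalization, used as an alternative. Of 22575 spots, 1257 were controls. Medians of spot and background were corrected by normexp (offset 50), loess-normalized within arrays with control spots at weight 0, and averaged over the spots of each of 20868 gene probes, which correlated with the authors' values at 0.975 to 0.996. A probe was kept if at least 4 arrays of any group had a Cy5 signal over the negative controls, taken as their trimmed mean (5% off each end) plus 3 SD after trimming (17560 probes, 84.1%). Symbols came from the platform annotation, and probes without exactly 1 symbol were tested but not named; a gene with several probes is given by its brightest. Promoters came from RefSeq (GRCm38.p6).

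All 39 arrays entered 1 limma model (limma 3.58.1 under R 4.3.3; files read by data.table, version 1.17.8) on 8 groups, with 5 label runs as a fixed block. The runs were read from the sequence of exposure labels and need not match the blocks of the authors. Benjamini-Hochberg adjustment of the moderated p-values covered every kept probe (threshold 0.05), and the code was tested on simulated data. Genes named are up to 15 largest changes per direction without overlap, up to 4 members per list with the smallest p, up to 10 calls of the difference between arms, up to 5 genes called in both arms, and Cyp1a1, Cyp1b1, Nqo1, Hmox1, Il6, Socs3 and Ptgs2. Called list members outside this rule, and some called genes not counted in the lists, were added after their values were seen. The members and the 29 gene lists were chosen with earlier results of these data known. Alternatives covered background, normalization, filter, block, weights, spot marks and leaving out each array of the 4 groups compared and 6 week sham m2.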

Additional observations from a re-analysis of the deposited data

Results flagged for a closer look

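Among 270 checks of single lungs within the 2 smoke groups (the named probes in each group), 14 values stood apart from the rest of their group; chance gives about 1 in 20 such checks. Of these, 7 were in m5 of the 6 week smoke and 6 week break mice: Cyp1b1 -0.63, Nqo1 -0.74, Aldh3a1 0.40, Ier3 0.24, Cav1 0.17, Nos3 0.47 and Sfn -1.02 as log2 ratios of lung to reference. Cyp1b1, Nqo1 and Aldh3a1 were higher in this lung than in the other 4, and the other genes lower. The m5 of the 6 week smoke-break sham mice, of the same label run, was also the highest of its group for Cyp1b1 (-0.71), Nqo1 (-0.91) and Aldh3a1 (0.31). In m2 of the stopped mice Per2 (1.67) and Ptgs2 (1.14) were high.

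In 12 week smoke lungs, m1 was low for Cirbp (-0.39) and for the club cell enzyme Cbr2 (0.55, with 3.12 in the nearest other lung) and high for Scd1 (1.32), while Bcl3 was high in m2 (1.18) and Bhlhe40 in m4 (0.53).

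The smoke arm and the sham arm differed, by the test of the difference of differences, for 16 probes on the log2 scale: Cyp1a1 -4.84, Cyp1b1 -3.31, Gclc -2.06, Nqo1 -1.89, Aldh3a1 -1.71, Cbr3 -1.68, Srxn1 -1.62, Sfn -1.59, Osgin1 -1.47, Txnrd1 -1.15, Bcl3 -1.14, Ptp4a1 -1.06 and -0.75, Sphk1 -0.93, Chordc1 -0.91 and Piga -0.70. In an array outside the comparison, the one labelled 6 week sham m2, Cyp1a1 (6.46) and Cyp1b1 (2.00) were at the level of smoke mice, and the cause was not tested.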

How the results depend on the processing

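No named gene reversed its direction where it was called, under any alternative run. Numbers of calls moved more. Higher and lower probes after stopping numbered 80 and 114 with median centring in place of loess, 94 and 104 without the label-run block, 511 and 424 with array weights, and 3 and 17 with only the arrays compared, where 85% of the calls were lower. The difference between arms was called for 10, 7 and 98 probes under the first 3 of these and for 25 with marked spots at weight 0. Between the sham groups, calls numbered 14 without background subtraction, 4 with an offset of 16, 2 with median centring, 13 from the authors' log2 ratios, 45 with marked spots at weight 0, 4 without the filter, 11 with the filter on the 2 compared groups, 2 without the block, 4 with a random block, 151 with array weights and 0 with only the sham arrays. Without 6 week sham m2, the counts were 210 higher, 193 lower, 36 for the difference between arms and 12 between the shams. Leaving out single lungs of the groups compared gave 88 to 154 higher, 101 to 158 lower, 49.4% to 56.8% lower, 10 to 18 for the difference between arms and 1 to 11 between the shams (1 without 6 week smoke-break sham m4 and without 12 week sham m2). The cause of these shifts was not tested, beyond fewer arrays in the last fits. With 5 and 4 lungs and 1 array each, small changes are not detectable, and dim probes such as Arntl give only bounds. No paired analysis was possible by replicate number because the labels carry none that groups share, and the label runs served as the block instead.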
